A study of Homo sapiens with 6 samples.

Results

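The Wnt ligands, their receptors, and the secreted and membrane proteins that restrain or enhance them were examined in cells of MDA-MB-231, a long-established triple negative line of human breast cancer, after exposure to the multi-kinase inhibitor EC-70124. The 55 genes were taken from the platform annotation by symbol, among 18417 genes with a probe set of their own on the array: 19 Wnt ligands, 10 Frizzled receptors, the co-receptors LRP5 and LRP6, 11 secreted antagonists, 2 Kremen receptors, 4 R-spondins, 3 LGR receptors, the ubiquitin ligases RNF43 and ZNRF3, and both Axins. The control group comprised 3 samples, and the treated group comprised 3 samples kept with EC-70124 at 500 nM for 24 h. All 6 came from the same line grown in serum-containing medium, the methods call the samples independent, and no vehicle is named for the controls in the sources used here. EC-70124 belongs to the indolocarbazoles, the compound class of staurosporine. The results hold for a single cell line at a single dose and time, and in bulk RNA fewer cells of a type and less RNA per cell cannot be told apart.

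Wnt proteins are secreted lipid-modified ligands that bind a Frizzled receptor together with LRP5 or LRP6. The activated receptor recruits Dishevelled and Axin to the membrane, the complex of APC, Axin and GSK3 that marks beta-catenin for degradation is held back, and beta-catenin then acts with TCF and LEF factors on target genes. Dickkopf proteins such as DKK1 block LRP5 and LRP6 with the help of Kremen receptors, whereas secreted Frizzled-related proteins and WIF1 bind the ligands. RNF43 and ZNRF3 remove Frizzled receptors from the surface, and R-spondins, through LGR4, LGR5 and LGR6, take these ligases away and so raise the response to Wnt.

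Sequences upstream of 3 genes are shown because LRP5 and LGR4 had the largest falls among the 55 genes, and because DKK1, a textbook target of beta-catenin, was the only gene, of the 36 in the family with a window, to hold either TCF/LEF motif searched. Each is the 250 bases before the annotated start in RefSeq (GRCh38.p14), 5′ to 3′ on the strand of the gene, and lies outside the transcript. They are LRP5 (chr11:68312341-68312590, plus strand), LGR4 (chr11:27472791-27473040, minus strand) and DKK1 (chr10:52314031-52314280, plus strand). Capitals mark the GC box GGGCGG, the CCAAT box CCAAT and the TCF/LEF motif CTTTGAA, searched on both strands.
LRP5: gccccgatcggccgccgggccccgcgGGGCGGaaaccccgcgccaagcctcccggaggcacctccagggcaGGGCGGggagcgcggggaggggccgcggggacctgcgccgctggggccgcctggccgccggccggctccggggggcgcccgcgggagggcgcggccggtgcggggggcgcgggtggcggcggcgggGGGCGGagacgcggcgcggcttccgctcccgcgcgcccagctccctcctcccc
LGR4: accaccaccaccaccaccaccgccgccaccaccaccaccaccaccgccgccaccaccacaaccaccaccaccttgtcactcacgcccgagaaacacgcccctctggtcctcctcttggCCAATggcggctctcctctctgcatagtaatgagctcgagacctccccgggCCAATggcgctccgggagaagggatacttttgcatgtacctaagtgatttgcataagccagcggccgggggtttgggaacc
DKK1: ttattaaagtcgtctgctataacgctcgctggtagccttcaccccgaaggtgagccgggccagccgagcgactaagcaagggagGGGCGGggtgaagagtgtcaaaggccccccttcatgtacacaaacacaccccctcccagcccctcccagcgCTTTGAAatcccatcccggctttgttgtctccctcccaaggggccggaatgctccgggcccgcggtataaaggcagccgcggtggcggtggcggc
The LRP5 window is 87.2% G and C and holds 3 GC boxes, whereas that of LGR4 is 62.0% G and C and holds 2 CCAAT boxes and no GC box. The DKK1 window holds 1 GC box and 1 CTTTGAA. Windows were available for 36 of the 55 genes (42 windows, since some genes have several starts), and for 6 of the 14 genes that changed. CTTTGAA was found in 1 of the 42 windows, against 3.80% of 35116 windows of the same length over all genes, and CTTTGAT in none, against 2.26%. GGGCGG was found in 29 windows (69.0%), against 42.6% over all genes, and CCAAT in 16 (38.1%), against 32.01%. The windows of the family were also richer in G and C (median 65.2%, against 58.0% over all windows). The part of this in the number of GGGCGG matches was not tested. These matches describe the letters in the windows, and no binding was measured.

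The values are model-based expression indices (MBEI), intensities on a linear scale from 1 Affymetrix Human Gene ST array per sample, whose medians over all probe sets ran from 437 to 460.1. A log2 fold change is the mean log2 intensity of the treated arrays minus that of the control arrays, a standard error (SE) follows it, and p-values are from limma, adjusted over all 18417 genes (Benjamini-Hochberg), with 0.05 as threshold. The number of arrays limits the precision. The line showed bright probe sets for markers chosen as high in it, such as VIM (12837 to 13991 over the 6 arrays). Of 7 luminal or receptor markers, ESR1 (183 to 233), PGR (149 to 176), CDH1 (152 to 188) and EPCAM (352 to 437) were dim. GATA3 ran from 507 to 745 and ERBB2 from 1442 to 1566, whereas KRT8 was bright (6218 to 7661). With treatment 5 of 7 markers chosen as high in the line were lower (against 14.8% of all genes): FN1, SPARC, EGFR, CD44 and AXL. VIM (log2 fold change -0.07, adjusted p = 0.328 from limma) and CAV1 (0.03, adjusted p = 0.752 from limma) did not pass. The summed intensities of the 7 were 57299 to 58733 in controls and 46049 to 47187 in treated arrays. Of 7 luminal markers, 3 were higher (against 19.7% of all genes): GATA3, KRT8 and the dim CDH1 (adjusted p = 0.0490 from limma). The luminal sums were 9089 to 9626 in controls and 10037 to 10897 in treated arrays, and KRT8 made up most of them. The part of these marker changes in the results below was not tested. Of 11 measured markers of leukocytes, endothelial cells and fibroblasts, which this line should lack, none passed limma's adjusted threshold and 1, ITGAM, had an unadjusted p under 0.05 (0.0411, limma), and their intensities ran from 78.6 to 731. The table holds no measure of background. For 31 of the 55 genes no array exceeded 731, so that their values could not be separated from background, and 5 of these 31 are among the 14 genes that changed. The limit of 731 is a single value, that of ITGAM in EC-70124 replicate 3. It lies above the median of every array (437 to 460.1), so most probe sets on an array lie under it too.

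Of the 55 genes, 14 changed with EC-70124 (25.5%), a share below the 34.5% of all genes that did. The direction was mostly downwards: 12 genes fell (21.8%, against 14.8% of all genes) and 2 rose (3.64%, against 19.7% of all genes). The median log2 fold change over the 55 genes was -0.07, and -0.0045 over all genes. Only LRP5 and LGR4 fell at least 2-fold, a size reached by 0.69% of all genes, and none of the 55 rose at least 2-fold (2.01% of all genes). The 6 arrays did not overlap between groups for 17 genes that were lower and 3 that were higher, together 20 of 55, against 47.6% of all genes (22% lower and 25.6% higher). Of the 41 genes that did not pass, 40 had a 95% interval that lay within a change of 1.5-fold in either direction, the exception being FZD1. Many of the 41 are among the 31 genes that never exceeded 731. For those a narrow interval does not show that expression was unchanged.

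**Figure D1:**
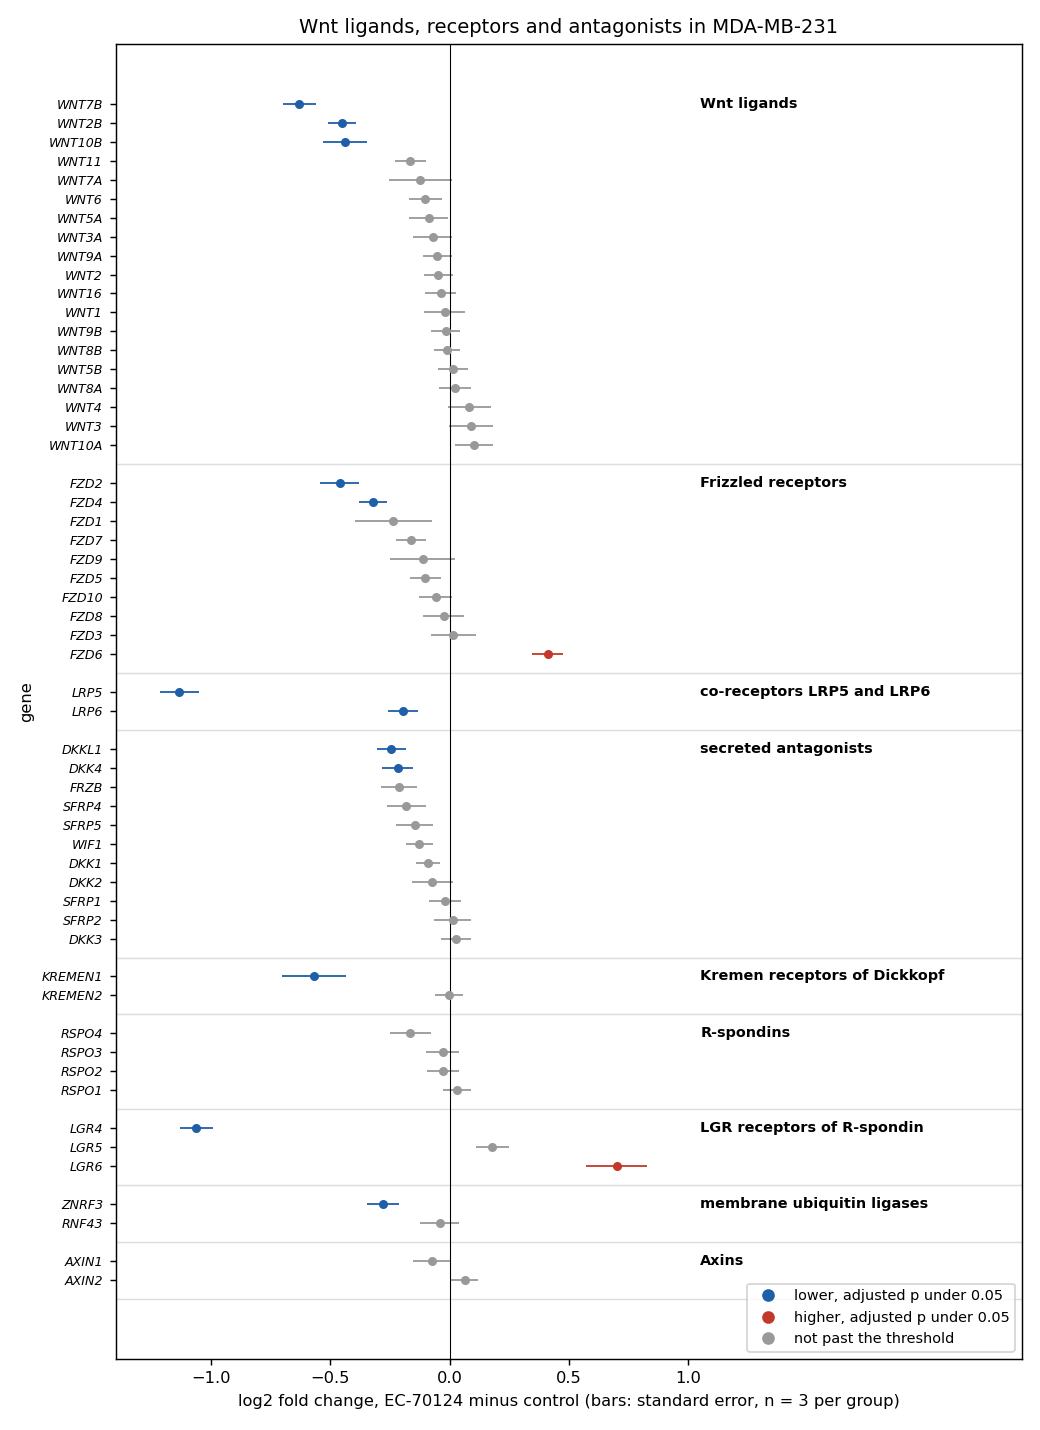
Log2 fold change (x axis, EC-70124 minus control, 3 arrays per group) of the 55 genes (y axis) grouped by role, with bars for the standard error, blue for genes that fell, red for genes that rose and gray for genes that did not pass. The values run from -1.13 for LRP5 to 0.70 for LGR6, and most gray points lie near 0.

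The co-receptor LRP5 had the largest change of the family. Its intensities were 3086, 3350.3 and 3138 in control replicates 1, 2 and 3 and 1604, 1462 and 1308 in EC-70124 replicates 1, 2 and 3. Every treated array was thus well below every control array. The log2 fold change was -1.13 (SE 0.08, adjusted p = 3.2e-05 from limma), a level 2.19-fold lower in treated cells. LRP5L, a partial copy of LRP5 with a probe set of its own, moved the other way, with 1048, 990.2 and 929.6 in control and 1387, 1288 and 1049 in treated arrays. It rose by 0.32 (SE 0.10, adjusted p = 0.0467 from limma), a call that was lost in 9 of the 15 alternatives, among them quantile normalization (adjusted p = 0.109) and leaving out any array but EC-70124 replicate 3 (adjusted p from 0.0689 to 0.141), and whether the copies share probe sequence was not tested.

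LRP6, the closest relative of LRP5 and able to serve the same ligands, showed a small fall. Its intensities were 2676, 2699.6 and 2649.8 in control and 2479, 2352 and 2187 in treated arrays. The control arrays lay close together, and each treated array was below them. The log2 fold change was -0.20 (SE 0.06, adjusted p = 0.0406 from limma). This call is weak: it was lost in 8 of 15 alternatives, with an adjusted p of 0.110 without control replicate 1, 0.110 without control replicate 2, 0.0833 without control replicate 3, 0.0930 without EC-70124 replicate 2 and 0.0640 without EC-70124 replicate 3, and 0.0551 with the replicate number as a block. Within the same arrays, log2 LRP5 minus log2 LRP6 went from 0.25 ± 0.05 (SD, n = 3) in controls to -0.69 ± 0.06 (SD, n = 3) in treated samples, a shift of -0.94. As for all such differences between genes here, the pair was chosen with results known and no test was made. It shows that the intensities of both co-receptors changed unequally.

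Among the receptors of R-spondin, LGR4 fell, LGR6 rose and LGR5 did not pass. LGR4, the member with wide expression in epithelia, had intensities of 2701, 2716 and 2739 in control and 1289, 1420.4 and 1205 in treated arrays. The groups were far apart, and the controls spanned a narrow range. The log2 fold change was -1.06 (SE 0.07, adjusted p = 2.1e-05 from limma), or 2.09-fold lower.
LGR6 was dim, with 277, 288 and 230.4 in control and 407, 377 and 513 in treated arrays. The groups did not overlap, and EC-70124 replicate 3 was the highest. The log2 fold change was 0.70 (SE 0.13, adjusted p = 0.00333 from limma), 0.61 with an offset of 50 before the logarithm and 0.57 without EC-70124 replicate 3. All its values were under the limit of 731 given above.
LGR5, a marker of intestinal stem cells and a target of beta-catenin, had 208, 199.99 and 195 in control and 223, 214 and 246 in treated arrays. Its treated arrays were all slightly above the controls, at intensities all under the limit of 731. The log2 fold change of 0.18 did not pass (SE 0.07, adjusted p = 0.0792 from limma).

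None of the 4 R-spondins, the ligands of these receptors, passed limma's threshold or had an unadjusted p under 0.05. Their log2 fold changes ran from -0.16 for RSPO4 to 0.03, and their intensities stayed between 147 and 633 in every array. RSPO4 had 571, 548 and 633 in control and 480.1, 576 and 509 in treated arrays, which overlap (adjusted p = 0.187 from limma).

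Of the membrane ubiquitin ligases, which clear Frizzled receptors, ZNRF3 fell. Its intensities were 1039, 1139 and 1057 in control and 869, 850.01 and 950.02 in treated arrays. The groups did not overlap, though EC-70124 replicate 3 came near the lowest control. The difference in log2 intensity was -0.28 (SE 0.07, adjusted p = 0.0124 from limma), with an adjusted p of 0.0509 without control replicate 2.
RNF43, its relative, had 533, 564 and 475 in control and 469.5, 526 and 531 in treated arrays. Those ranges overlap almost fully and lie under the limit of 731, and the log2 fold change was -0.04 (SE 0.08, adjusted p = 0.747 from limma).

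**Figure D2:**
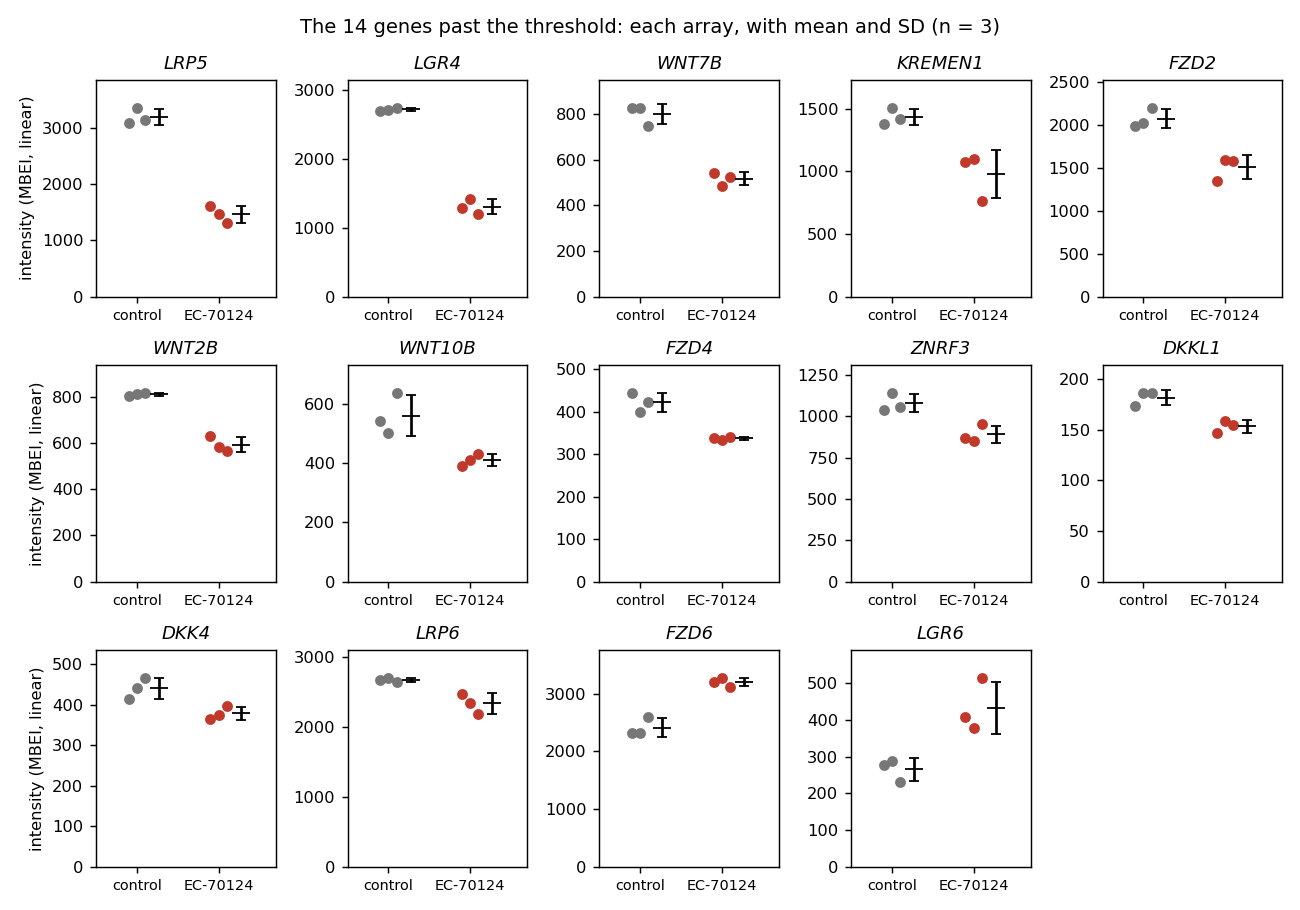
Intensity (MBEI, linear scale from 0, y axis) of the 14 genes that passed the threshold in each control array (gray) and each EC-70124 array (red), with the mean and SD of 3 arrays beside them. Each panel has its own y axis, so heights cannot be compared between panels. LRP5 and LGR4 drop from at least 2701 to at most 1604, whereas the means of DKKL1, DKK4 and FZD4 differ least in intensity units. Relative to control, LRP6 changes least (0.87 of the control level).

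Of the 10 Frizzled genes, which encode the receptors for Wnt ligands, 2 fell (20%, against 14.8% of all genes), 1 rose (10%, against 19.7%) and 7 did not pass. FZD2 had intensities of 1991, 2019.7 and 2196 in control and 1346, 1596 and 1576 in treated arrays. Replicate 1 was the lowest of the treated arrays, and all of them were below the controls. This gave a log2 fold change of -0.46 (SE 0.08, adjusted p = 0.00271 from limma).
FZD4, known also as the receptor of Norrin in blood vessels, had 443, 399 and 423 in control and 337, 333 and 341 in treated arrays. The treated arrays were nearly equal and lay below all controls, at a brightness under the limit of 731. The fitted log2 change was -0.32 (SE 0.06, adjusted p = 0.00320 from limma).
FZD6, a receptor linked mainly to planar polarity and to restraint of beta-catenin signaling, was the only Frizzled gene that rose. It had 2317, 2312 and 2595 in control and 3202, 3266 and 3122 in treated arrays. Each treated array was above each control, and the log2 fold change was 0.41 (SE 0.06, adjusted p = 0.00148 from limma), or 1.33-fold higher. Within arrays, log2 FZD2 minus log2 FZD6 went from -0.22 ± 0.02 (SD, n = 3) to -1.09 ± 0.14 (SD, n = 3).

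FZD7, often studied in triple negative breast cancer, had 865, 883 and 832 in control and 716, 796 and 796 in treated arrays. Its groups did not overlap, yet the log2 fold change of -0.16 did not pass (SE 0.06, adjusted p = 0.0865 from limma). Past the threshold it came with quantile normalization (adjusted p = 0.0203) and with cyclic loess (adjusted p = 0.0405). FZD1 had 2160.5, 2113 and 3078 in control and 1736, 2117 and 2342 in treated arrays. Control replicate 3 stood apart and the groups overlap. Its log2 fold change of -0.24 had the widest error among the 55 genes (SE 0.16, adjusted p = 0.316 from limma), and it was -0.06 without control replicate 3 and -0.12 without EC-70124 replicate 1. The remaining Frizzled genes, FZD3, FZD5, FZD8, FZD9 and FZD10, had log2 fold changes from -0.11 to 0.02 and overlapping groups.

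Of the 19 Wnt ligands, 3 fell (15.8%, near the 14.8% of all genes), none rose in limma's test or at an unadjusted p under 0.05, and 16 did not pass. WNT7B, a ligand of the beta-catenin pathway, had intensities of 825, 827 and 749.97 in control and 542, 485 and 525 in treated arrays. The groups were clearly separate, and the log2 fold change was -0.63 (SE 0.07, adjusted p = 0.000218 from limma), or 1.55-fold lower. Its closest relative WNT7A overlapped between groups, and log2 WNT7B minus log2 WNT7A went from 0.27 ± 0.06 (SD, n = 3) to -0.24 ± 0.24 (SD, n = 3) within arrays.
WNT2B had 802, 812 and 815 in control and 629.6, 584 and 564 in treated arrays. The controls were nearly equal, and the treated arrays lay well below them, with a log2 fold change of -0.45 (SE 0.06, adjusted p = 0.000609 from limma).
WNT10B, a ligand known from mammary gland development, had 540.4, 502 and 635 in control and 390.1, 411 and 431 in treated arrays. Control replicate 3 was the highest, all treated arrays were below the controls, and no array exceeded the limit of 731. The difference in log2 intensity was -0.44 (SE 0.09, adjusted p = 0.00631 from limma), and -0.34 without control replicate 3.
WNT5A, the main ligand of beta-catenin-independent signaling, had 912, 819 and 831 in control and 839.7, 855 and 719 in treated arrays. These overlap, with a log2 fold change of -0.09 (SE 0.08, adjusted p = 0.465 from limma). WNT11, another such ligand, had 474, 447 and 468 in control and 413, 443 and 385 in treated arrays, all under the limit of 731. These do not overlap, and its log2 fold change of -0.16 did not pass (adjusted p = 0.0974 from limma). Over the 16 ligands that did not pass, log2 fold changes ran from -0.16 to 0.10, and each had a 95% interval within a change of 1.5-fold. Several of these 16, such as WNT16, WNT2 and WNT8B, never exceeded 731, and for them such an interval does not show unchanged expression.

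Of the 11 secreted antagonists, 2 fell (18.2%, against 14.8% of all genes), none rose in limma's test or at an unadjusted p under 0.05, and both that fell were dim. The role was assigned by symbol, also for DKK3 and DKKL1. DKKL1, a relative of the Dickkopf proteins known from spermatogenesis, had 173, 186 and 186 in control and 146, 159 and 155 in treated arrays. These intensities are among the lowest 30% of all genes, and the groups did not overlap. This gave a log2 fold change of -0.24 (SE 0.06, adjusted p = 0.0140 from limma), with an adjusted p of 0.0554 without control replicate 2 and 0.0514 without EC-70124 replicate 1.
DKK4 had 415, 441 and 466 in control and 366, 374 and 396 in treated arrays. The highest treated array was close to the lowest control. The fitted log2 change was -0.22 (SE 0.06, adjusted p = 0.0309 from limma), and the adjusted p was 0.0846 without control replicate 2, 0.101 without control replicate 3, 0.0961 without EC-70124 replicate 1 and 0.0901 without EC-70124 replicate 2.
DKK1, which blocks LRP5 and LRP6, had the brightest probe set of the family, with 9134, 9474 and 9226 in control and 8603, 8803 and 8729 in treated arrays. All treated arrays were slightly lower than all controls. The log2 fold change of -0.09 did not pass (SE 0.05, adjusted p = 0.219 from limma), and its 95% interval ran from -0.21 to 0.03. It passed with an intensity trend in the variance (adjusted p = 0.0405 from limma). FRZB, a secreted Frizzled-related protein, had 273, 285 and 276 in control and 249, 216 and 257 in treated arrays, and WIF1, which binds Wnt ligands directly, 151, 144 and 139.6 and 135, 128 and 135. In both the groups did not overlap, at intensities all under the limit of 731. Their log2 fold changes of -0.21 and -0.13 did not pass (adjusted p = 0.0627 and 0.129 from limma). DKK2, DKK3, SFRP1, SFRP2, SFRP4 and SFRP5 had log2 fold changes from -0.18 to 0.02. DKK3 alone has another probe set, at -0.04 on the log2 scale against 0.02 for the brighter of both, which was used.

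KREMEN1, a receptor that binds Dickkopf and removes LRP5 and LRP6 from the surface, fell. Its intensities were 1377, 1506 and 1417 in control and 1073, 1102 and 761 in treated arrays. The groups did not overlap, and EC-70124 replicate 3 was far below the other treated arrays. The difference in log2 intensity was -0.57 (SE 0.13, adjusted p = 0.0114 from limma), and -0.40 without EC-70124 replicate 3 (adjusted p = 0.00203 from limma).
KREMEN2 had 2543, 2574 and 2779 in control and 2664, 2675 and 2542 in treated arrays. Its groups overlap almost fully, with a log2 fold change of -0.0019 (SE 0.06, adjusted p = 0.986 from limma). Log2 KREMEN1 minus log2 KREMEN2 went from -0.88 ± 0.10 (SD, n = 3) to -1.44 ± 0.26 (SD, n = 3) within arrays.

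Neither Axin passed limma's threshold or had an unadjusted p under 0.05. AXIN1, the scaffold of the beta-catenin degradation complex, had 1646, 1834 and 1792 in control and 1725, 1767 and 1518 in treated arrays, and AXIN2, a scaffold that is itself a target of beta-catenin, had 510.4, 523 and 508 and 509.9, 549 and 551. In both genes the groups overlap. Their log2 fold changes were -0.08 (SE 0.08, adjusted p = 0.508 from limma) and 0.06 (SE 0.06, adjusted p = 0.453 from limma). The 95% interval of AXIN2 ran from -0.07 to 0.19, at intensities all under the limit of 731.

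The other genes of the pathway were taken as 4 lists from textbook knowledge. Of their 94 genes outside the 55, 88 were measured, of which 22 fell (25%, against 14.8% of all genes) and 10 rose (11.4%, against 19.7%), with a median log2 fold change of -0.07. Of 14 measured genes for secretion of Wnt and its modification outside the cell, 1 fell and 1 rose (7.14% each, against 14.8% and 19.7% of all genes). TRABD2A, a membrane protease that inactivates Wnt ligands, had 1917, 1973 and 2029 in control and 1379.9, 1349.5 and 1224 in treated arrays, without overlap (log2 fold change -0.58, SE 0.06, adjusted p = 0.000239 from limma). SOSTDC1, a secreted antagonist of Wnt and BMP, was dim and rose by 0.30 (SE 0.09, adjusted p = 0.0385 from limma), a call lost in 7 alternatives, with adjusted p = 0.0816 without control replicate 1, 0.119 without control replicate 2, 0.116 without EC-70124 replicate 1 and 0.0937 without EC-70124 replicate 2.

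Of 38 measured genes of signal transduction, 12 fell (31.6%, against 14.8% of all genes) and 5 rose (13.2%, against 19.7%), with a median log2 fold change of -0.09. Without control replicate 2, 6 fell (11.6% of all genes did), and without control replicate 1, 3 rose (16.2% of all genes did). The largest falls were those of TLE3 and TLE1, co-repressors that bind TCF factors. TLE3 had 2499, 2759 and 2448 in control and 1560.4, 1558 and 1509 in treated arrays (log2 fold change -0.73, SE 0.06, adjusted p = 7.1e-05 from limma), and TLE1 had a log2 fold change of -0.64 (SE 0.10, adjusted p = 0.00167 from limma). BTRC, which recognizes marked beta-catenin for degradation, fell by 0.48 on the log2 scale, CTNNBIP1, an inhibitor of beta-catenin and TCF, by 0.43, and BCL9, a co-activator of beta-catenin, by 0.35. The Dishevelled genes moved in different directions. DVL3 had 2196, 2351 and 2356 in control and 3222, 3083 and 3333 in treated arrays (log2 fold change 0.48, SE 0.06, adjusted p = 0.000426 from limma) and DVL2 had 1241, 1337 and 1236 and 1756, 1776 and 1731 (0.47, SE 0.06, adjusted p = 0.000385). DVL1 had 1705, 1806 and 1749.6 in control and 1447, 1583 and 1458 in treated arrays (log2 fold change -0.23, SE 0.06, adjusted p = 0.0176 from limma), and its adjusted p was 0.0679 without control replicate 2 and 0.0615 without EC-70124 replicate 1. Within arrays, log2 DVL1 minus log2 DVL2 went from 0.46 ± 0.03 (SD, n = 3) to -0.23 ± 0.06 (SD, n = 3). APC rose by 0.39 (adjusted p = 0.00153 from limma). CTNNB1, which encodes beta-catenin, had 9694, 9589.8 and 9815 in control and 10090, 10392 and 10499 in treated arrays. Its treated arrays were all above the controls, and the log2 fold change of 0.09 did not pass (SE 0.05, adjusted p = 0.223 from limma). DVL1, DVL2, APC, CTNNB1, CTNNBIP1 and BCL9 were named after their values were seen.

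**Figure D3:**
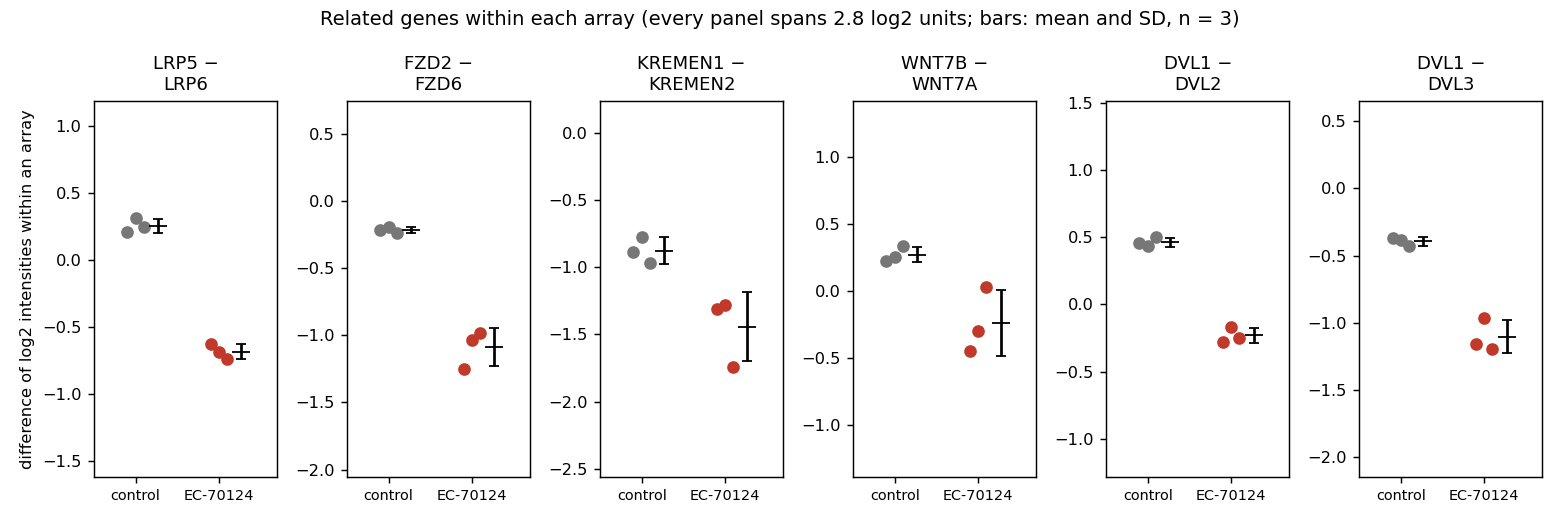
Difference between the log2 intensities of related genes within each array (y axis, every panel spans the same range), for control (gray) and EC-70124 (red) arrays, with mean and SD of 3 arrays. LRP5 against LRP6 goes from 0.25 to -0.69 and DVL1 against DVL2 from 0.46 to -0.23. The groups do not overlap in any of the 6 panels, but these pairs were chosen with results known. Of 12 pairs compared, AXIN1 against AXIN2 overlapped and is not shown.

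Of 22 genes of beta-catenin-independent receptors and planar polarity, 6 fell (27.3%, against 14.8% of all genes) and 4 rose (18.2%, against 19.7%), with a median log2 fold change of -0.06. The number that rose was 1 to 3 when single arrays were left out: 1 without control replicate 1 or 3, 2 without control replicate 2, EC-70124 replicate 1 or EC-70124 replicate 2, and 3 without EC-70124 replicate 3. Over all genes, 16.2% to 21.1% rose when single arrays were left out. PTK7, a co-receptor without kinase activity, had 1631, 1695 and 1746 in control and 1139, 1203 and 1033 in treated arrays, with no overlap (log2 fold change -0.59, SE 0.07, adjusted p = 0.000356 from limma). PRICKLE1, a planar polarity protein, rose by 0.52 (SE 0.09, adjusted p = 0.00275 from limma), and the cadherin CELSR2 fell by 0.43 on the log2 scale (adjusted p = 0.000962 from limma). CAMK2D, a calcium-dependent kinase, fell by 0.38 on the log2 scale (adjusted p = 0.0201 from limma), with adjusted p = 0.0562 without control replicate 1 and 0.0713 without control replicate 3.

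Of 23 measured textbook target genes, 5 fell (21.7%, against 14.8% of all genes) and none rose (against 19.7%) in limma's adjusted test (1, LGR5, was higher at an unadjusted p under 0.05), with a median log2 fold change of -0.05. Of these, 5 belong to the 55 genes, and of the other 18, 4 fell: FOSL1, CD44, SOX4 and LEF1. LEF1 (log2 fold change -0.21, adjusted p = 0.0374 from limma) is also in the transduction list and was counted as a fall in both. Its call was lost in 7 of 15 alternatives. NKD1, NOTUM and APCDD1 belong to another list as well, and none of them passed. Among all 23, the number that fell was 3 without control replicate 1, 2 without control replicate 2 and 3 without EC-70124 replicate 1. Over all genes, 11.8%, 11.6% and 12.7% fell in these settings. FOSL1, a subunit of AP-1, had 5376, 5587 and 5632 in control and 2989.97, 3242 and 3644 in treated arrays, without overlap (log2 fold change -0.75, SE 0.08, adjusted p = 0.000175 from limma). CD44, a surface receptor of hyaluronan and a marker of this line, had a log2 fold change of -0.29 (SE 0.06, adjusted p = 0.00490 from limma). SOX4 had -0.24 (adjusted p = 0.0208 from limma), with adjusted p = 0.0852 without control replicate 1, 0.0595 without control replicate 2 and 0.0555 without EC-70124 replicate 1. MYC had 8892, 9106 and 8886 in control and 8149.8, 8184 and 7178 in treated arrays, a log2 fold change of -0.20 that did not pass (SE 0.07, adjusted p = 0.0529 from limma), and CCND1 had -0.08 (adjusted p = 0.397 from limma). LEF1, MYC and CCND1 were named after their values were seen.

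**Figure D4:**
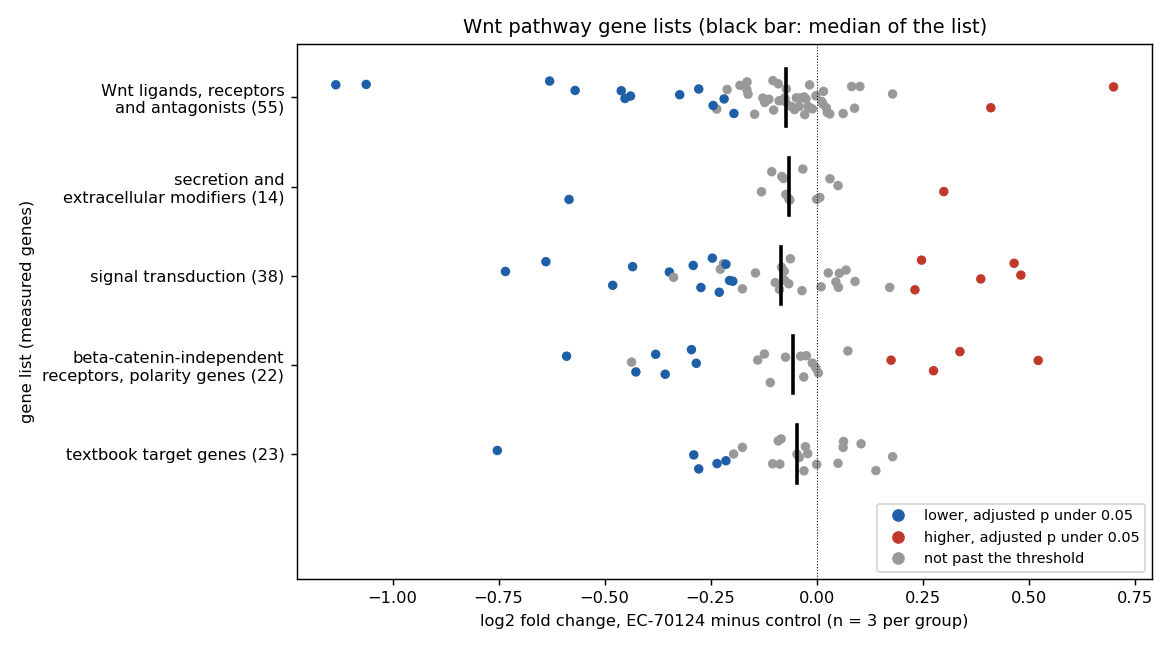
Log2 fold change (x axis, EC-70124 minus control, 3 arrays per group) of every measured gene of the 55 and of 4 other Wnt pathway lists (y axis, number of genes in parentheses), blue for genes that fell, red for genes that rose and gray for the rest, with the median as a black bar. The medians lie between -0.09 and -0.05, and genes on both sides of 0 passed in each list except the target genes, of which none rose.

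With an unequal-variance test in place of limma's, the calls for 10 of the 14 genes were lost after adjustment, and those for DKKL1, LGR4, LRP5 and WNT7B were kept. The direction of all 14 was the same in each of the alternatives run for them.

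**Figure D5:**
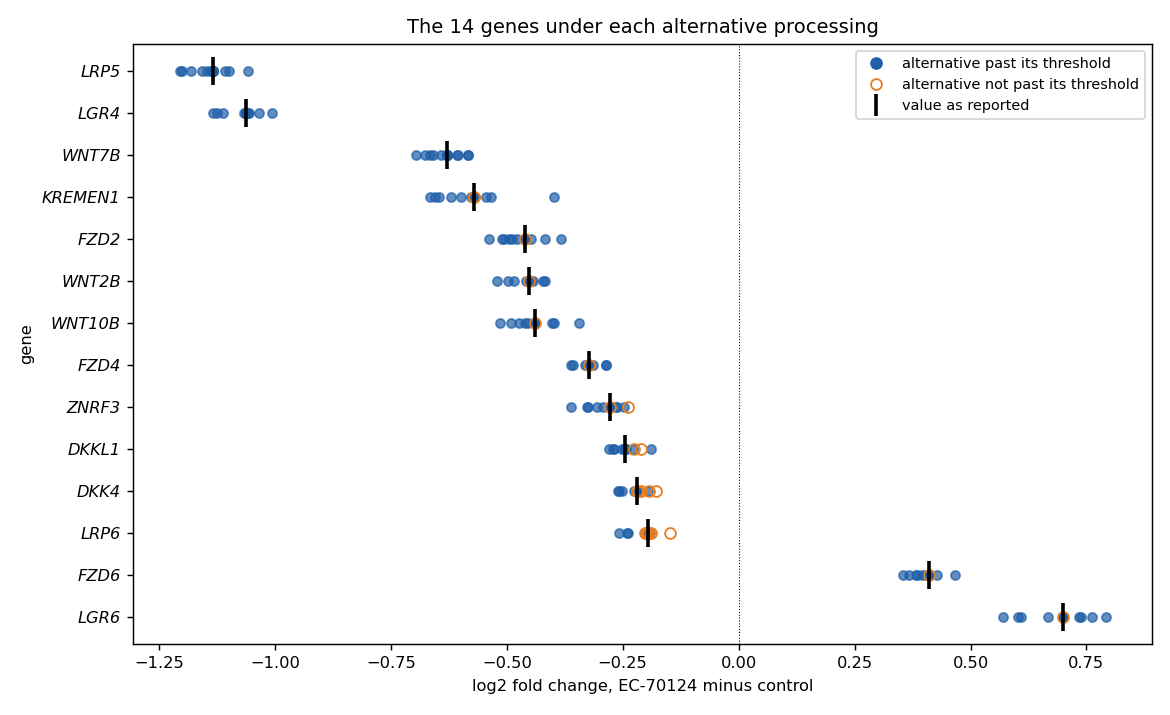
Log2 fold change (x axis) of the 14 genes that passed (y axis) under each alternative way of processing or testing, blue where the alternative passed its threshold and open orange where it did not, with a black bar for the value as reported. LRP5 stays between -1.21 and -1.06 and LGR4 between -1.13 and -1.01, and no point of any of the 14 genes crosses 0. Only quantile normalization and cyclic loess could have moved a point across 0.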

How the data were processed

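mRNA of 3 control and 3 treated samples was profiled on Affymetrix Human Gene ST arrays. In dChip, the authors normalized the arrays by pairs on probes of invariant rank, and they deposited a model-based linear intensity (MBEI) for each probe set and sample. The dChip version is not given in the sources used here. Intensities under 1 were raised to 1 before log2 was taken. Of 33252 probe sets, 19460 carry 1 symbol, and each of 18417 genes was represented by its probe set with the highest mean log2 value. The groups were compared 2-sided in R 4.3.3 by limma 3.58.1 (lmFit, eBayes), with Benjamini-Hochberg adjustment over all genes. The comparison was repeated after quantile or cyclic loess normalization, with the 30% dimmest genes dropped, with 50 added before log2, with probe sets of a gene combined by their median, with eBayes in its trend and robust mode, with a block for replicate number, with each array left out in turn, and with an unequal-variance t-test per gene, chosen here (the methods name a t-test only for ranking genes in gene set enrichment). Each p-value sets the difference between the groups against the spread between samples within a group. In limma that spread is moderated with the spread over all genes.

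The members and lists were chosen with earlier results of these data known. Values per array are given for each gene that passed, for pairs of relatives, for the largest change of each role, and for up to 4 genes of each other list. Outside this rule are DKK1, WNT5A, WNT11, FZD1, FZD7, LGR5, FRZB, WIF1 and LRP5L, named after their values were seen. On simulated data for this comparison (18417 genes, 200 changed), 75% of genes changed 1.5-fold and 92% of those changed 2-fold were recovered, and 14 unchanged genes were called. In the real comparison 34.5% of all genes were called, a far larger share. The adjustment depends on that share, so these rates may not hold for the real comparison.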

Additional observations from a re-analysis of the deposited data

How the results depend on the processing

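The direction of the 14 genes that changed held after quantile normalization and cyclic loess. The other alternatives could not have reversed it. Each gene was run in 15 alternatives, and DKKL1, which is among the 30% dimmest genes, in 14. All 14 passed after quantile normalization, cyclic loess, an offset of 50, the median over probe sets, and an intensity trend with robust settings. After quantile normalization 15 of the 55 genes were lower and 2 higher, and lower genes made up 53.1% of all calls against 42.8% as reported (3527 lower and 3112 higher, against 2722 and 3631). With the unequal-variance t-test after adjustment, 4 members were lower and 0 higher, and over all genes 1280 were lower and 1962 higher. At its unadjusted p under 0.05, 12 members were lower and 2 higher, but KREMEN1 and LRP6 were lost and DKK1 and WIF1 gained. At that threshold 15.2% of all genes were lower and 19.7% higher. With single arrays left out, 8 to 12 members were lower and 2 to 3 higher. Over all genes, 11.6% to 16% were then lower and 16.2% to 21.1% higher. The median log2 fold change of Wnt family members (all 55 genes) was -0.12 after quantile normalization, -0.0861 after cyclic loess, -0.089 without the 30% dimmest genes, -0.064 with the offset and -0.093 to -0.058 with single arrays left out. With single arrays left out, the log2 fold change of KREMEN2 ran from -0.026 (without control replicate 1) to 0.038 (without control replicate 3) and that of RNF43 from -0.11 (without control replicate 3) to 0.015 (without EC-70124 replicate 1), none past the threshold.

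Among the other lists, polarity genes that were higher numbered 1 after quantile normalization and 1 with the adjusted t-test, and 1 to 3 with single arrays left out. Those that were lower numbered 2 with the adjusted and 3 with the unadjusted t-test. Secretion genes that were higher numbered 0 without the 30% dimmest genes (which leaves out SOSTDC1), with the adjusted t-test, with the unadjusted t-test and with the replicate block, and 0 to 1 with single arrays left out. Those that were lower numbered 2 after quantile normalization, with the adjusted t-test and with the unadjusted t-test. Transduction genes that were lower numbered 3 with the adjusted t-test and 6 to 10 with single arrays left out, and those that were higher numbered 3 to 5. Target genes that were lower numbered 1 with the adjusted t-test and 2 to 5 with single arrays left out. Over all genes, 19.2% were lower and 16.9% higher after quantile normalization, and 6.95% and 10.7% with the adjusted t-test. With the unadjusted t-test 15.2% were lower and 19.7% higher, and with the replicate block 14.5% and 19.1%. Without the 30% dimmest genes, 21% were lower and 26.9% higher. With single arrays left out, 11.6% to 16% were lower and 16.2% to 21.1% higher. The causes were not tested.

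Control and treated samples share replicate numbers but were not shown to be paired: the correlation of deviations from the group means was 0.13, -0.02 and 0.14 for replicates 1, 2 and 3. With the replicate block 11 members were lower and 2 higher, LRP6 being lost (adjusted p = 0.0551 from limma), and over all genes 2662 were lower and 3521 higher.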
